A study of Mus musculus with 49 samples.

Results

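The cytosolic ribosomal protein genes encode the protein part of the ribosome that translates nuclear messages, as distinct from the mitochondrial ribosome. They were taken as the protein-coding genes of the count table whose mouse symbol is Rpl or Rps followed by a number, together with Rpsa, Rplp0, Rplp1 and Rplp2. The ribosomal S6 kinase genes (Rps6k), symbols that end in -ps and predicted-gene (Gm) names were left out. This gave 86 of 55487 genes. Of these, 77 encode canonical subunit proteins, 46 of the large and 31 of the small subunit, and 8 are paralogs (Rpl3l, Rpl7l1, Rpl10l, Rpl22l1, Rpl36al, Rpl39l, Rps27l and Rps27rt). The remaining gene, Rps19bp1, matched by its name alone and encodes a protein that binds Rps19. The rule goes by name and gene type and uses no measured value, although it was set with earlier results of these data known.

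Expression was measured by RNA sequencing in HuHER2 transgenic mice, which carry the human HER2 growth factor receptor gene and had developed palpable mammary tumors. Palpation began at 7 months of age. Of 6 mice, 3 received BP, an iron oxide nanoparticle preparation known here only by that code, as a single intravenous dose of 5 mg Fe, and 3 received PBS. All of the groups below come from tumor-bearing mice. The nanoparticle-associated (NA) libraries came from liver, spleen, tumor and bone marrow of the 3 BP mice and from the lymph node of BP mouse 2 alone, 13 libraries in all. For them, a section of the organ was digested and the cells that carried nanoparticles were pulled out with a magnet. The bulk libraries, 36 in all, came from undigested sections of liver, spleen, tumor, lymph node, bone marrow and lung of the 3 BP and the 3 PBS mice. Lung gave no NA library. The NA and BP bulk libraries of an organ therefore came from the same animals, and differed in digestion and magnetic separation as well as in the cells they held. The series' design text places collection 7 days after treatment, whereas a treatment label gives 31 days. The promoter that drives the transgene was not given in the sources used here, and a NanoString experiment was not analysed here.

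Each ribosome pairs a large with a small subunit, and cells make the proteins of both in matched amounts. Most mammalian ribosomal protein messages begin with a C followed by a run of pyrimidines, the 5′ terminal oligopyrimidine (TOP) motif, through which mTORC1 and the binding protein Larp1 adjust their translation and stability together. Because ribosomal protein messages are abundant in growing cells, they often take up a visible part of all sequenced messages.

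The TOP motif was looked for at the start of each member in RefSeq promoter entries of GRCm38.p6, which held 66 of the 86 members, 57 of them canonical. A C followed by at least 4 pyrimidines stood exactly at a listed start in 13 of the 57 canonical members (22.8%), against 813 of 27025 genes in all (3.01%). With the run allowed to begin within 10 bases of the start, on the gene's own strand, the shares were 59.6% and 34.4%. Of the 9 paralogs and name-only members with an entry, 1 (11.1%) held the run exactly at the start and 6 (66.7%) within 10 bases. The motif CCGGAA, searched on both strands over the 300 bases of an entry, was held by 56.1% of the canonical members and by 16.7% of all genes. CTTTCC, searched in the same way and able to overlap the pyrimidine run, was held by 50.9% and 29.3%. Among the 9 paralogs and name-only members the shares were 44.4% for CCGGAA and 77.8% for CTTTCC. Starts in these entries are single annotated bases, so a start that is off by a base hides a motif. The following 30 bases, 10 before and 20 from the start, belong to members that the results below turn on, with capitals for a pyrimidine run that begins with C at the start.
Rplp2: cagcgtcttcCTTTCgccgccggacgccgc
Rps6: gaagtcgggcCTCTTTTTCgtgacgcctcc
Rps27: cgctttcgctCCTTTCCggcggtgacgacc
Rps27rt: ttatcccttgCTTTCCggcggtgacgacct
Rps27l: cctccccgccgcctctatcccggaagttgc
Rpl36a: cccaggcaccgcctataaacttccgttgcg
Rpl7l1: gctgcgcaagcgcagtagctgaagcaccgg
These windows lie at chr7:141447641-141447670 (plus strand) for Rplp2, chr4:86857348-86857377 (minus) for Rps6 and chr3:90213629-90213658 (minus) for Rps27. They lie at chr9:114982720-114982749 (minus) for Rps27rt and chr9:66946076-66946105 (plus) for Rps27l, of which it is the first of 2 listed starts. They lie at chrX:134585644-134585673 (plus) for Rpl36a and chr17:46782637-46782666 (minus) for Rpl7l1. Rps27 and Rps27rt, a near copy of it, share the bases that follow their pyrimidine runs. In the paralog Rps27l no run begins exactly at this start, although its window holds pyrimidine runs that begin with C on either side of it.

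Library totals ran from 9362264 to 19734849 counts, so that 3 counts, the limit allowed by a count of 0, equal 0.152 to 0.320 CPM, the count scaled to equal library sizes. Replicate libraries came from separate mice, so their spread holds animal and technical differences. Mitochondrial genes held 48.2 to 57.2% of the counts of the NA liver libraries and 1.80 to 28.6% of those of all others. Of the 86 members, 1 (Rpl10l) had no counts in any library, and between 83 and 84 passed the filter on low counts in each comparison. In bulk tissue, fewer cells of a type and less RNA per cell cannot be told apart.

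The share of all counts held by the 86 genes differed most between organs. In BP bulk tissue of mice 1, 2 and 3 it was 1.82, 1.96 and 1.87% in liver, and 4.23, 3.88 and 3.86% in bone marrow. It was 5.39, 7.77 and 5.02% in tumor and 6.08, 5.96 and 5.00% in lung. The highest shares were those of spleen, at 11.9, 10.4 and 11.0%, and lymph node, at 11.9, 18.9 and 10.1%. In PBS bulk tissue the order by mean was the same, except that spleen and lymph node changed places. Lymph node averaged 13.6% and spleen 11.1% in BP tissue, against 9.33% and 10.5% in PBS tissue. PBS livers held 1.62, 1.81 and 1.95% and PBS bone marrow 3.49, 3.78 and 4.18%. PBS tumors held 4.66, 7.14 and 6.06% and PBS lungs 3.39, 7.79 and 4.76%. PBS spleens held 7.28, 12.8 and 11.4%, and PBS lymph nodes 11.7, 7.28 and 8.98%. Liver libraries were below every other bulk library. Marrow came next by mean, although PBS lung 1 lay below it. Neighbours in this order did not separate for tumor and lung, nor for spleen and lymph node, whose values overlapped. Tumor and lung also met spleen and lymph node. PBS spleen 1 and PBS lymph node 2, both at 7.28%, lay below BP tumor 2 at 7.77% and PBS lung 2 at 7.79%. The count ratio of large to small subunit genes stayed within 1.26 and 1.61 over all bulk libraries.

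**Figure D1:**
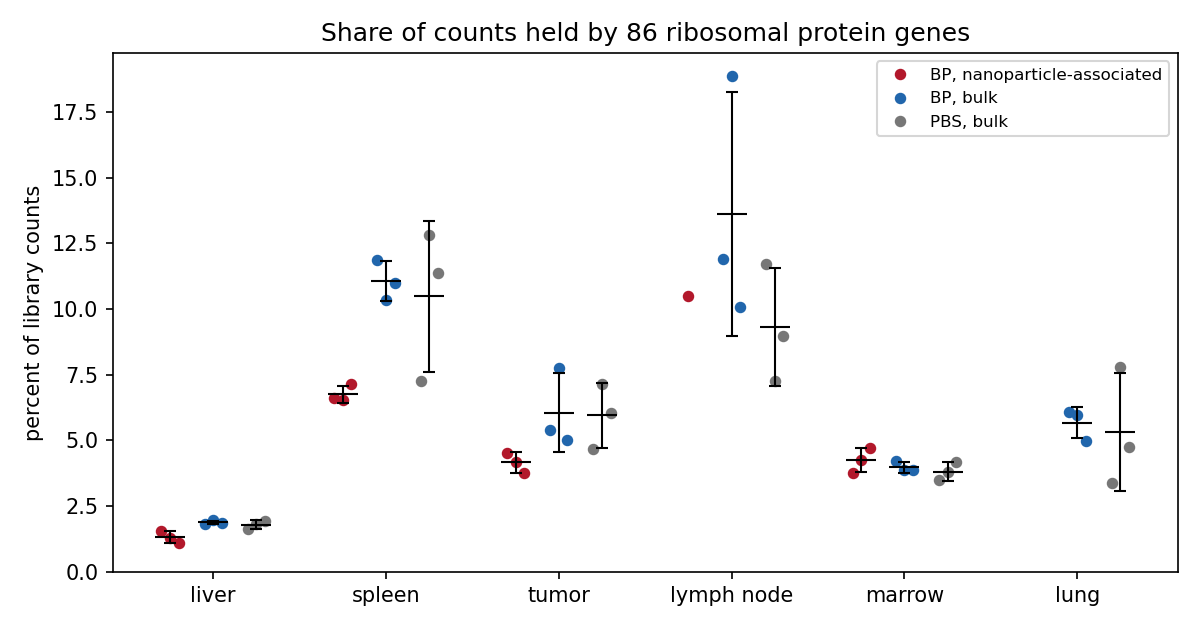
Share of library counts (percent) held by the 86 ribosomal protein genes in each library, by organ, for nanoparticle-associated, BP bulk and PBS bulk libraries; points are libraries, and bars are the mean ± SD of groups of 3. Liver lies lowest, at 1.10 to 1.96%, and a BP lymph node library highest, at 18.9%.

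BP and PBS bulk tissue were compared to ask whether the nanoparticles altered the family in whole organs. No member differed in any of the 6 organs at an adjusted p under 0.05 (edgeR quasi-likelihood test). No member had an unadjusted p under 0.05 either, and DESeq2 also called none. Few or no genes of any kind were called in these comparisons: 0.0235% of all genes tested in liver (3 genes) and 0% in spleen, tumor, lymph node, marrow and lung. The family's 0 of 83 or 84 is therefore at the background. The share of counts averaged 1.88 ± 0.0741% in BP liver and 1.80 ± 0.166% in PBS liver, and 11.1 ± 0.768% in BP spleen and 10.5 ± 2.87% in PBS spleen (SD, n = 3 each). The BP and PBS shares overlapped in all 6 organs.

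The lymph node had the widest offset. Its share was 13.6 ± 4.63% in BP mice and 9.33 ± 2.25% in PBS mice (SD, n = 3 each). The members' median log2 fold change was 0.40, against -0.01 over all genes tested, and 82 of 84 had a positive value. The 2 others were Rps27l and the rarely counted Rpl39l. Rpl27, a large subunit protein with the smallest p of the family there, had 993.6, 1798 and 800.1 CPM in BP lymph nodes and 828.2, 747.1 and 678.2 CPM in PBS lymph nodes. Mouse 2 stood far above the other BP animals, and the groups overlapped (log2 fold change 0.67 ± 0.37 SE, adjusted p = 0.866). The stalk protein gene Rplp0 had 1988, 4587 and 1907 CPM in BP lymph nodes and 2162, 1839 and 1897 CPM in PBS lymph nodes, which again set BP mouse 2 apart and left the others alike. Without BP mouse 2 the median log2 fold change was 0.005. That library also had the lowest summed adipocyte markers of the bulk lymph nodes, 228.4 CPM, against 1032 and 5188 CPM in the other BP and 1932, 9760 and 5749 CPM in the PBS lymph nodes. Its T cell markers were the highest, at 1709 CPM, against 900.4 to 993.8 CPM in the other BP and 555.1 to 1373 CPM in the PBS lymph nodes. The part of this tissue mixture in the family's level was not tested. Only Rpl29 among the members did not overlap between groups, with 77.99, 132.0 and 71.97 CPM in BP and 69.67, 68.44 and 66.84 CPM in PBS lymph nodes, where 3.75% of all genes were higher and 3.06% lower without overlap.

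In the tumor, the members' median log2 fold change between BP and PBS mice was 0.13, against -0.05 over all genes. Rpl41, which encodes the shortest ribosomal protein, had the smallest p, with 1206, 1544 and 566.5 CPM in BP tumors and 647.4, 777.3 and 659.0 CPM in PBS tumors (log2 0.67 ± 0.42, adjusted p = 0.807). Rps12 of the small subunit likewise had 1584, 1843 and 592.6 CPM in BP tumors against 777.1, 875.7 and 878.3 CPM in PBS tumors. For both genes BP mice 1 and 2 were high and BP mouse 3 was the lowest of the 6. The pathway's other genes gave no call: medians were 0.31 for 78 mitochondrial ribosomal protein genes, -0.29 for 38 ribosome biogenesis genes and -0.23 for 28 initiation factors. BP tumor 1 held 19.5% mitochondrial counts and 8898 CPM of adipocyte markers, against 3.97 to 8.33% and 237.8 to 1054 CPM in the other BP tumors and 3.06 to 4.06% and 7.51 to 175.0 CPM in the PBS tumors. Its part in these values was not tested.

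In liver, Rps2, which encodes a protein near the ribosome's message entry site, was 34.89, 35.81 and 38.60 CPM in BP and 42.62, 38.76 and 43.17 CPM in PBS livers. Every BP value lay below every PBS value, but the difference did not pass the test (log2 -0.19 ± 0.10, adjusted p = 0.999). In all, 1 member was higher and 3 were lower without overlap in BP livers, of 83, against 4.64% and 3.72% of all genes. Liver Rps28 and Rps29 had log2 fold changes of -0.23 and -0.14 and did not pass. No member was free of overlap in spleen, tumor, marrow or lung, where 2.31%, 5.66%, 3.05% and 1.85% of all genes were higher and 2.17%, 5.15%, 2.87% and 2.57% lower without overlap. In spleen the members' median was 0.03 and the smallest p-values were those of Rpl29 (log2 0.25), Rplp2 (-0.15) and Rps2 (-0.14). The spleen median was -0.26 without PBS spleen 1, whose share of 7.28% was the lowest there. In bone marrow 78 of 83 members had a positive log2 fold change. Members share libraries, so these are not 78 separate results, and the share of all genes with a positive value is not given here. The members' median in marrow was 0.09, and Rpl22l1 (0.21), Rpl30 (0.20) and Rpl7l1 (0.15) had the smallest p-values. In lung the median was 0.08, with Rpl29 at 0.16, Rps27rt at 0.37 and Rpl10 at 0.17. PBS lungs were widely spread: the lung median was -0.19 without PBS mouse 1 and 0.59 without PBS mouse 2. Red cell markers summed to 2627 CPM in PBS lung 1 and 52090 CPM in PBS lung 2. Their part was not tested.

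**Figure D2:**
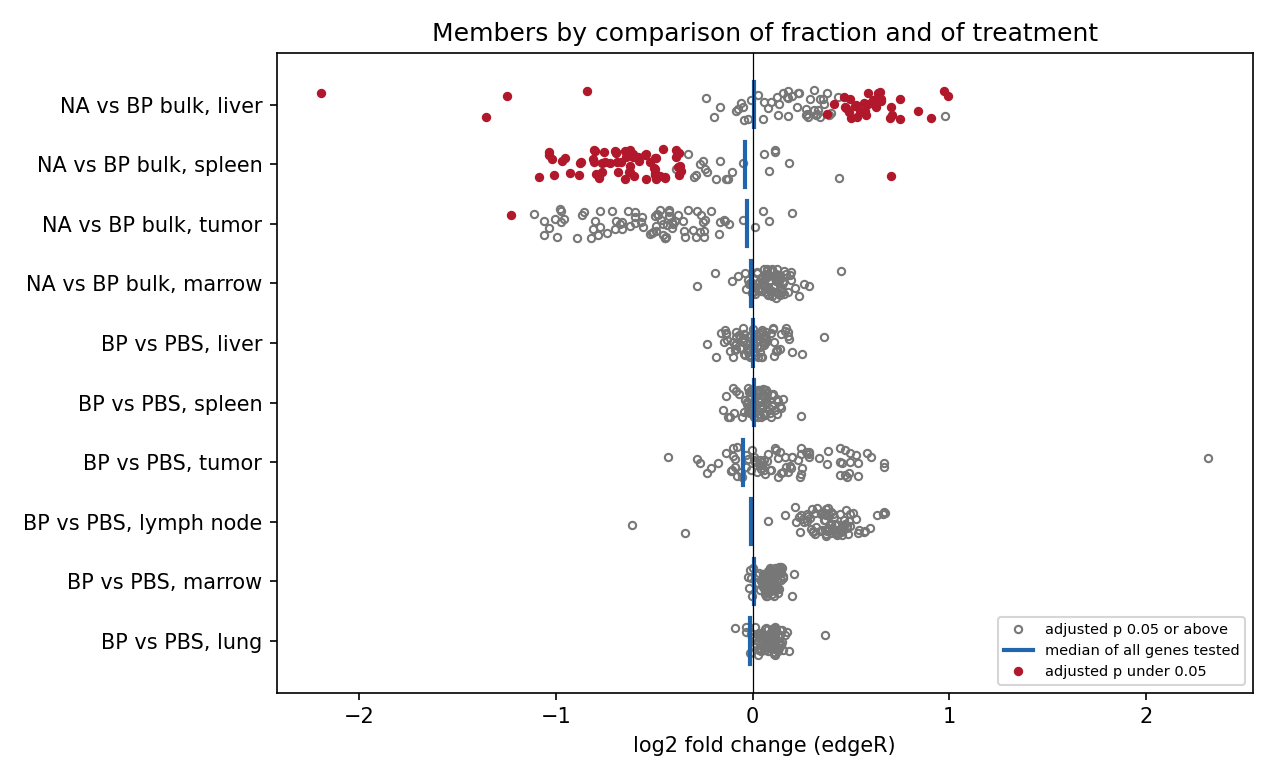
Log2 fold change (edgeR) of each tested member, for nanoparticle-associated over BP bulk libraries in 4 organs and BP over PBS bulk libraries in 6 organs; filled points have an adjusted p under 0.05, and the vertical bar is the median of all genes tested. Filled points lie to both sides in liver and mostly to the left in spleen, where the members' median is -0.54, and none is filled in the BP comparisons.

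Nanoparticle-associated cells were compared with bulk tissue of the same BP mice to ask how the family stood in the cells that had taken up or bound particles. In spleen the family was lower in the NA cells. Of 83 members tested, 62 were lower and 1 was higher (edgeR, adjusted p under 0.05), whereas 22% of all genes were lower and 20.2% were higher. The lower members included 34 of the 46 large and 24 of the 31 small subunit genes. The members' median log2 fold change was -0.54, against -0.04 over all genes. The family's share of counts was 6.60, 6.53 and 7.13% in NA spleen cells and 11.9, 10.4 and 11.0% in bulk spleens, without overlap (ratio of means 0.610). Leaving out 1 library at a time left at least 41 members called, the fewest without bulk spleen 1.

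The members with the largest fall in NA spleen cells came from both subunits. Rpl36a had 373.6, 463.8 and 460.3 CPM in NA cells and 926.1, 965.9 and 866.5 CPM in bulk spleen (log2 -1.09 ± 0.13, adjusted p = 0.00155). Rpl22, an RNA-binding large subunit protein needed for normal T and B cell development in mice, had 377.3, 450.1 and 430.7 CPM in NA cells and 835.7, 934.6 and 811.2 CPM in bulk spleen (-1.04 ± 0.13). Rps14 had 1021, 1158 and 1170 CPM in NA cells and 2357, 2304 and 2195 CPM in bulk spleen (-1.03 ± 0.12, adjusted p = 0.0012). For all 3 genes the highest NA value was well below the lowest bulk value. Rpl13a, the most abundant member per length in bulk spleen, fell by 1.02 on the log2 scale, Rpl39 by 1.01 and Rps7 by 0.97. The 5S particle genes, whose proteins also restrain Mdm2 when ribosome assembly fails, were both lower, Rpl11 by 0.75 and Rpl5 by 0.45. Rpsa, a small subunit protein also known as a laminin receptor, had 1897, 2364 and 2384 CPM in NA cells and 3112, 3264 and 2976 CPM in bulk spleen (-0.49 ± 0.14, adjusted p = 0.0259). Of the paralogs, Rps27l (-0.93), Rps27rt (-0.68), Rpl22l1 (-0.67) and Rpl36al (-0.61) all passed the test, as did the partners Rps27 (-0.81) and Rpl7 (-0.61). Rps4x of the small subunit passed too (-0.54).

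Some members did not pass in spleen. Of the stalk genes, whose proteins recruit elongation factors, Rplp0 had 1684, 2149 and 2087 CPM in NA cells and 1749, 1998 and 1836 CPM in bulk spleen, and Rplp2 had 666.6, 786.5 and 811.2 CPM against 652.1, 737.1 and 702.2 CPM in bulk spleen. Both overlapped between the groups (log2 0.08 and 0.11), whereas Rplp1, their stalk partner, was lower by test (-0.75). Rps6, the small subunit protein phosphorylated downstream of mTORC1, had 1414, 1615 and 1596 CPM in NA cells and 1861, 1958 and 1749 CPM in bulk spleen. These did not overlap but did not pass (log2 -0.27 ± 0.12, adjusted p = 0.113). Rpl3, Rpl10 and Rpl7l1 had values of -0.13, -0.24 and 0.18 and did not pass. Rps2 had 82.97, 108.7 and 103.7 CPM in NA cells and 64.52, 81.95 and 70.91 CPM in bulk spleen, again without overlap (log2 0.44 ± 0.15, adjusted p = 0.0519). The 1 higher gene was Rps19bp1, with 23.9, 19.7 and 20.4 CPM in NA cells and 12.2, 15.9 and 11.2 CPM in bulk spleen (0.71 ± 0.19, adjusted p = 0.0228).

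Other lists of translation genes differed in direction in spleen. Of 38 ribosome biogenesis genes, 26 were higher and 2 were lower in NA cells, with a median log2 fold change of 0.90. Bop1, which acts in large subunit assembly, had 106.1 ± 4.78 CPM in NA cells and 43.4 ± 3.66 CPM in bulk spleen (SD, n = 3 each; log2 1.29 ± 0.11), and Gnl3, a nucleolar GTP-binding protein gene, was higher by 2.04. Myc, a transcription factor that drives ribosome synthesis, had 495.5, 398.6 and 436.5 CPM in NA cells and 43.60, 47.58 and 57.57 CPM in bulk spleen (3.16 ± 0.16, adjusted p = 0.000173). Larp1, which binds TOP messages, had 385.3, 416.4 and 407.1 CPM in NA cells and 109.5, 146.3 and 129.4 CPM in bulk spleen (1.65 ± 0.14, adjusted p = 0.000567). Each of these genes was above the highest bulk value in all 3 NA libraries. Of 28 initiation factors, 15 were higher and 2 were lower (median 0.50), Eif4a1, the cap-complex helicase, by 1.11. Of 7 genes listed for elongation, 2 were higher, Eef2 (0.59) and Eif5a (0.59). The 1 lower gene was Tpt1 (-0.50), which is on the list but does not itself encode an elongation factor. Of 78 mitochondrial ribosomal protein genes, 5 were higher and 33 were lower (median -0.44), mostly in the direction of the cytosolic family. Of the ribosome partners outside the name rule, Fau, whose product includes a small subunit protein, was lower (-0.45), while Rack1 (-0.26) did not pass.

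**Figure D3:**
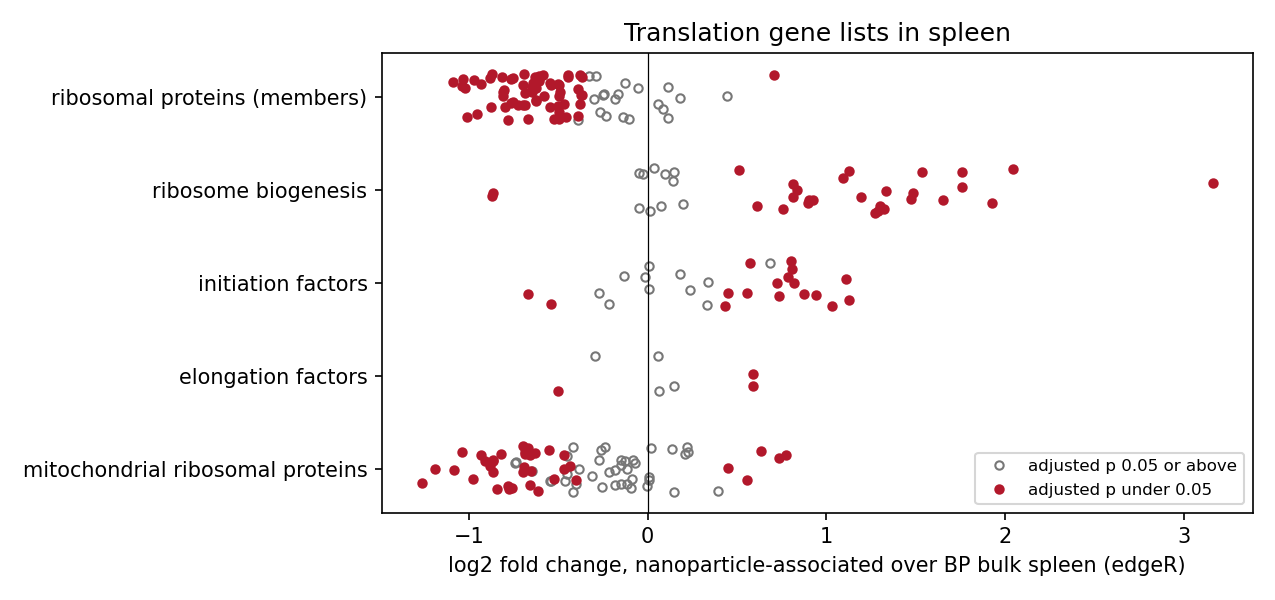
Log2 fold change (edgeR) of nanoparticle-associated over BP bulk spleen for the tested members and for 4 other lists of translation genes, 1 point per gene; filled points have an adjusted p under 0.05. The ribosomal protein genes lie mostly below 0, and the biogenesis genes mostly above, with a median of 0.90.

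Cell markers also differed between NA cells and bulk tissue in spleen. Of 5 B cell markers 3 were lower, and their summed level was 1447 to 2167 CPM of the library total in NA cells and 2716 to 4339 CPM in bulk spleen. Of 6 T cell markers 4 were lower, with sums of 125.0 to 162.0 CPM in NA cells and 234.8 to 414.4 CPM in bulk spleen. All 6 dissociation response genes (Fos, Jun and others known to rise when tissue is digested) were higher, with sums of 1709 to 8854 CPM in NA cells and 46.3 to 90.4 CPM in bulk spleen. Their part in the family's lower level was not tested, and digestion cannot be told apart from nanoparticle association in this design. Scaling each library to the ribosomal protein genes, which sets the family as a whole to no change and moves the median of all genes to 0.50, shows the change within the family: 14 members were then higher and 10 lower, against 37.2% and 6.88% of all genes. Rps19bp1 (1.26), Rps2 (0.97), Rpl7l1 (0.74), Rplp2 (0.65) and Rplp0 (0.61) were among the higher ones. Rpl36a (-0.56) and Rpl22 (-0.50) were among the lower ones, with Rps14, Rpl13a, Rpl39 and Rps7.

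In liver most of the family's calls were higher in NA cells. Of 83 members 33 were higher and 4 were lower in NA cells, where 37.3% and 37.5% of all genes were higher and lower. The share called higher was near the background, and the share called lower was below it. The 33 were all canonical, 16 of the large and 17 of the small subunit, and no canonical member was lower. The members' median log2 fold change was 0.34, against 0.01 over all genes. The total of 37 calls was 20 without bulk liver 1 and 22 without bulk liver 2. Rps29, a zinc-binding protein of the small subunit, had 151.4, 200.7 and 147.7 CPM in NA cells and 79.2, 82.3 and 89.7 CPM in bulk liver (0.99 ± 0.16, adjusted p = 0.000325). Rps27, also a zinc-binding small subunit protein, had 164.8, 226.7 and 169.0 CPM in NA cells and 92.9, 92.9 and 99.3 CPM in bulk liver (0.98 ± 0.16, adjusted p = 0.000385). Rplp2 of the stalk had 141.6, 216.7 and 166.0 CPM in NA cells and 95.6, 99.2 and 98.4 CPM in bulk liver (0.84). On the fit's scale each was higher in every NA library than in any bulk library, and NA mouse 2 was the highest. Values as CPM of the library total are not given for these genes. Of the library total, the family's share was lower in NA liver cells, as given below. Rps23 (0.91), Rps12 (0.75), Rps4x (0.65), Rplp1 (0.55) and Rpl5 (0.47) also rose. Rps6 (0.44, adjusted p = 0.0568), Rplp0 (0.24), Rpsa (0.18) and Rpl11 (-0.04) did not pass.

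The 4 lower genes in NA liver cells were 3 paralogs and the name-only gene. Rps27l, a p53-induced paralog of Rps27, had 28.5, 37.1 and 26.5 CPM in NA cells and 120.5, 166.5 and 134.9 CPM in bulk liver (-2.19 ± 0.18, adjusted p = 5.09e-06). Rpl7l1 had 25.5, 27.6 and 21.8 CPM in NA cells and 57.1, 58.5 and 62.9 CPM in bulk liver (-1.25 ± 0.13, adjusted p = 1.99e-05). Rpl36al had 58.2, 79.7 and 65.9 CPM in NA cells and 112.9, 115.0 and 137.2 CPM in bulk liver (-0.84 ± 0.15, adjusted p = 0.000869). Rps19bp1 had 3.05, 5.78 and 3.43 CPM in NA cells and 9.76, 9.56 and 12.1 CPM in bulk liver (-1.36 ± 0.25, adjusted p = 0.001). All 4 were lower in every NA library than in any bulk library. Another paralog, Rpl22l1, did not pass (0.05). With the libraries scaled to the ribosomal protein genes, which moves the median of all genes to -0.32, 4 members were higher and 12 were lower, against 27.8% and 42.5% of all genes.

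Counting over the whole library gave the opposite order to counting without mitochondrial genes. Of all counts, the family held 1.56, 1.29 and 1.10% in NA liver cells and 1.82, 1.96 and 1.87% in bulk liver. Of non-mitochondrial counts it held 2.84 ± 0.287% in NA cells and 2.004 ± 0.0765% in bulk liver (SD, n = 3 each). Mitochondrial genes took 48.2, 57.2 and 56.1% of counts in NA cells and 5.80, 5.67 and 7.06% in bulk liver. In the same libraries 74 of 78 mitochondrial ribosomal protein genes were lower and none was higher, with a median log2 fold change of -1.29. Biogenesis genes split, with 9 of 37 higher and 11 lower, as did initiation factors, with 4 of 28 higher and 12 lower. All 6 hepatocyte markers were lower, with a sum of 10480 to 20630 CPM of the library total in NA cells and 80890 to 94640 CPM in bulk liver. All 4 endothelial markers were higher, and so were the 6 dissociation response genes, with sums of 3970 to 7478 CPM in NA cells and 42.7 to 48.9 CPM in bulk liver. The part of these changes in the family's values was not tested.

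In tumor the family's values pointed down in NA cells, but 1 member passed the test. That was Rps25, a small subunit protein used by some viral and cellular internal ribosome entry sites, with 290.7, 272.8 and 221.0 CPM in NA cells and 788.2, 632.1 and 416.2 CPM in bulk tumor (log2 -1.23 ± 0.29, adjusted p = 0.0473). Of all genes 3.17% were lower and 5.87% were higher, so 1 of 83 is below the background. Rps25 did not pass with the animal as a block (0 members called), and DESeq2 called 16 members lower. Without bulk tumor 3 the count was 9, and without any other single library it was 0. The members' median was -0.49, against -0.03 over all genes, and 24 members were lower without overlap, where 18.2% of all genes were. Rpl22 had 211.2, 231.2 and 167.2 CPM in NA cells and 516.2, 418.1 and 313.5 CPM in bulk tumor (-1.03, adjusted p = 0.0547), and Rpl11 had 352.1, 330.1 and 267.5 CPM in NA cells and 874.8, 611.5 and 496.4 CPM in bulk tumor (-1.06, adjusted p = 0.0594). Neither gene overlapped between the groups. Rplp1 (-1.06) and Rpsa (-0.96) did not pass either. The share of counts was 4.54, 4.18 and 3.77% in NA cells and 5.39, 7.77 and 5.02% in bulk tumor. Mammary epithelial markers summed to 9270 to 10790 CPM in NA cells and 1947 to 5500 CPM in bulk tumor, and adipocyte markers to 29.2 to 38.8 CPM in NA cells and 237.8 to 8898 CPM in bulk tumor. Their part was not tested.

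In bone marrow no member differed between NA cells and bulk marrow (edgeR; 0 members at an unadjusted p under 0.05 and 0 by DESeq2 after adjustment), where 4.8% of all genes were higher and 2.9% lower. Rps2 had the smallest p, with 48.05, 69.49 and 82.74 CPM in NA cells and 41.85, 48.79 and 56.01 CPM in bulk marrow (0.45 ± 0.20, adjusted p = 0.212), and the groups overlapped. With the animal as a block, Rps2 (0.43) and Rpl28 (0.28) passed, which was the total of 2, and without NA marrow 1 a single member passed. The median was 0.08. The share of counts was 3.78, 4.28 and 4.72% in NA cells and 4.23, 3.88 and 3.86% in bulk marrow. In the lymph node, the single NA library held 10.5% against 18.9% in bulk tissue of the same mouse. That comparison has no replicate and no test. The bulk library of this mouse had the highest share of all bulk lymph nodes, and the NA share lay within the range of the others. The NA library had lower B cell (985.6 against 1532 CPM) and T cell markers (685.2 against 1709 CPM) than that bulk library.

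The change in NA cells differed between organs. In a joint test of 4 organs, each organ's change was set against the mean change of the other 3. Each organ's change thus also enters the reference of the other 3, so the counts below are not independent between organs. In liver 45 members had a higher and 5 a lower change, where 29.4% and 24.3% of all genes did. The higher ones included Rps27 (difference of log2 changes 1.35 ± 0.27) and Rps29 (1.12), and the lower ones were Rps19bp1 (-1.76), Rps27l (-1.62), Rpl7l1 (-1.39), Rpl36al (-0.77) and Rps2 (-0.62). In spleen 2 were higher, Rps19bp1 (1.13) and Rpl7l1 (0.67), and 14 lower, against 9.57% and 8.63%. Rpl36a (-0.95), Rps14 (-0.89) and Rps27 (-0.88) led the lower ones. In tumor 23 were lower and none was higher, against 15.4% and 8.43%, among them Rps20 (-1.11) and Rps12 (-1.09). In marrow 5 were higher and none was lower, against 7.78% and 7.22%, namely Rps27l (1.20), Rpl11 (0.77), Rpl36al (0.71), Rps25 (0.68) and Rpl22 (0.61). These counts depended on single animals. Without mouse 1 the totals were 19 in liver, 0 in spleen, 3 in tumor and 1 in marrow. Without mouse 2 they were 9 in liver, 2 in spleen, 1 in tumor and 1 in marrow. Without mouse 3 they were 49 in liver, 0 in spleen, 13 in tumor and 0 in marrow. The same test of the BP effect in bulk tissue over 6 organs called 0 members in each organ, where 4.06% of all genes were called in tumor and 0% elsewhere. There, 2 members in tumor had an unadjusted p under 0.05.

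The organs were compared in the 18 PBS libraries, each organ against the mean of the other 5, to describe the family without nanoparticles. These comparisons share their libraries and are not independent. Spleen and lymph node had the family high. In spleen 68 of 84 members were higher and none was lower, against 25.3% and 21.8% of all genes, with a median log2 difference of 0.87 against 0.01 over all genes. In lymph node 64 were higher and none was lower, against 20.2% and 13.6%, with a median of 0.81 against 0.03. Rps27 had 644.0, 1486 and 1288 CPM in spleen and 186.8 to 1153 CPM in the other organs (1.58 ± 0.26, adjusted p = 0.000108). The lymph node values of Rps27 were 1153, 1152 and 822.4 CPM, against 186.8 to 1486 CPM in the other organs (1.43 ± 0.26, adjusted p = 0.000451). Rps24, which has tissue-dependent splice forms, had 1171, 2279 and 2093 CPM in spleen and 362.9 to 2013 CPM elsewhere (1.34 ± 0.24, adjusted p = 0.000247). For Rps27 and Rps24 the values of PBS spleen 1 fell within the range of the other organs. Rps27rt was 1.56 higher in spleen and 1.65 in lymph node, and Rpl22l1 was 1.09 and 0.72 higher. Rpl39l had 0.58, 3.02 and 1.66 CPM in lymph node and 0 to 0.80 CPM elsewhere (2.91 ± 0.69, adjusted p = 0.00385), levels worth few counts.

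Liver had the family low. There 67 of 84 members were lower and 3 were higher, against 35.3% and 29% of all genes, with a median of -0.90 against -0.37. Rps19 of the small subunit had 216.0, 214.9 and 262.8 CPM in liver and 295.2 to 1031 CPM in the other organs, without overlap (-1.28 ± 0.27, adjusted p = 0.000619). Rplp1 (-1.28) and Rps12 (-1.25) were also lower without overlap. Among the members that passed, Rps27rt (-1.66), Rpl12 (-1.40 ± 0.31, adjusted p = 0.000939) and Rps15a (-1.30 ± 0.29, adjusted p = 0.000844) had the largest falls, with overlap, and Rpl22l1 was 0.68 lower. The 3 higher genes were Rps27l (1.52 ± 0.30, adjusted p = 0.000356), Rpl7l1 (0.66) and Rps19bp1 (0.65). Rps27l had 289.4, 289.5 and 373.5 CPM in liver and 43.8 to 233.2 CPM in the other organs, without overlap. The direction of the other 2 genes depended on scaling, because the fit raised liver values by a factor of 1.80 relative to CPM of the library total. Of the library total, Rps27l averaged 177.6 CPM in liver and 128.6 CPM over the other organs, with tumor higher at 188.9 CPM. Rpl7l1 averaged 76.8 CPM in liver and 99.3 CPM over the others, and Rps19bp1 12.2 and 16.4 CPM, so that both were then lower in liver.

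Bone marrow, lung and tumor lay between. In marrow 33 members were lower and none was higher, against 30.4% and 27.5% of all genes, and the median was -0.61 against -0.18. The share called lower was modestly above the background, and the count depended on single mice, as given below. Rps27 had 199.6, 224.9 and 235.5 CPM in marrow and 186.8 to 1486 CPM elsewhere (-1.27 ± 0.32, adjusted p = 0.00258), so the groups overlapped. Rps27l (-1.19), Rps14 (-1.13), Rps27rt (-1.13), Rps19bp1 (-0.76) and Rpl36al (-0.69) were also lower. Rpl22l1 was the one called member without overlap, with 59.7, 54.4 and 66.1 CPM in marrow and 68.9 to 269.5 CPM elsewhere (-1.10 ± 0.27, adjusted p = 0.00204). In lung 12 were lower and none was higher, against 21.5% and 29.2%, fewer than the background in both directions. Rpl4 had 526.5, 813.0 and 693.1 CPM in lung and 858.9 to 2259 CPM elsewhere, without overlap (-0.95 ± 0.24, adjusted p = 0.00314). Rplp0 (-1.05 ± 0.26, adjusted p = 0.00266), Rps2 (-0.89 ± 0.19, adjusted p = 0.000737) and Rpl7l1 (-0.55) were also lower in lung. In tumor 3 were higher and none was lower, against 28.1% and 22.6%. They were Rps19bp1 (0.77), Rps2 (0.50) and Rpl7l1 (0.49). Rps19bp1 had 20.9, 26.3 and 22.9 CPM in tumor and 7.999 to 30.6 CPM in the other organs, so its groups overlapped.

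**Figure D4:**
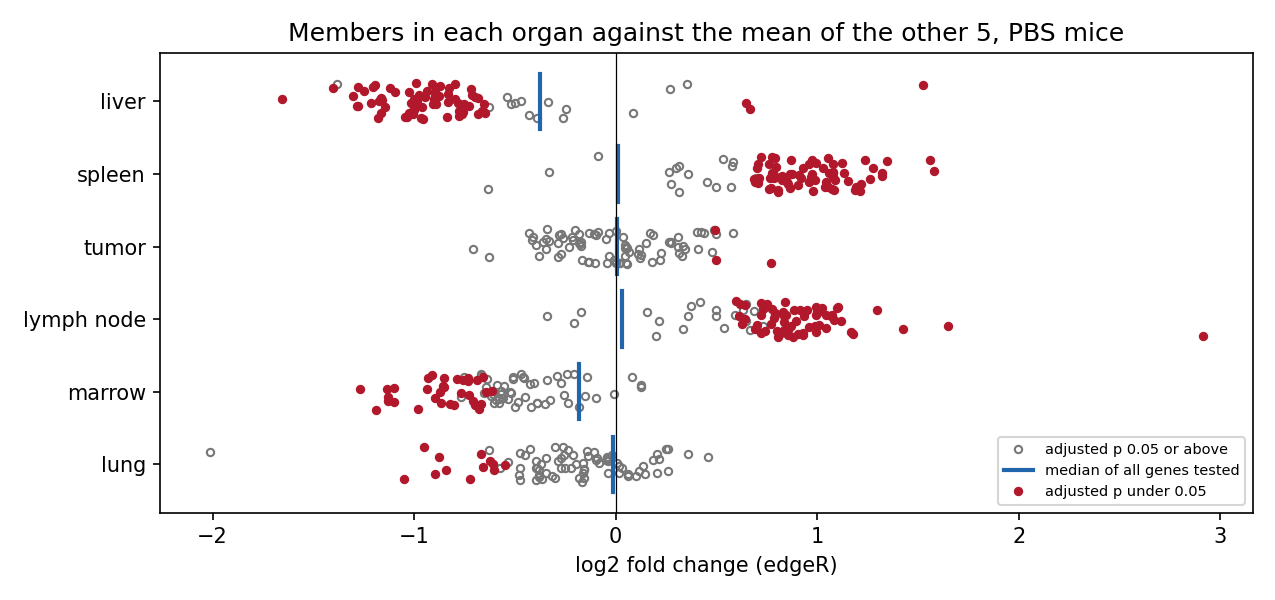
Log2 difference (edgeR) of each of the 84 tested members between an organ and the mean of the other 5 in PBS mice; filled points have an adjusted p under 0.05, and the vertical bar is the median of all genes tested. Liver members lie mostly below 0, with a median of -0.90 and Rps27l at 1.52, and spleen and lymph node members mostly above.

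Other lists ran with the family in some organs and against it in others. Of the mitochondrial ribosomal protein genes, 62 were higher and none lower in liver, 16 were lower and none higher in spleen, and 37 were lower and none higher in marrow. Of the biogenesis genes 1 was higher and 15 lower in liver, 15 higher and 1 lower in spleen, 15 higher and none lower in tumor, 20 higher and 2 lower in marrow, and 27 lower and none higher in lung. The shares of all genes called in each organ are those given above. The fit raised liver values by a factor of 1.80 relative to CPM of the library total, and values on that scale are not given for these lists. Fau and Rack1 were both higher in spleen and in lymph node. The organs' markers matched their labels: all 6 hepatocyte markers were higher in liver, all 5 B cell and 6 T cell markers in spleen and lymph node, all 7 neutrophil and 5 erythroid markers in marrow, all 4 lung epithelial markers in lung and all 5 mammary epithelial markers in tumor. All 5 adipocyte markers were higher in the lymph node libraries, and PBS lymph node 2, with 9760 CPM of them and 28.6% mitochondrial counts, had the lowest share of the family there. The part of adipose tissue in these values was not tested. The counts depended on single mice: without PBS mouse 3 the calls fell to 14 in liver, 10 in spleen, 10 in lymph node, 1 in marrow and 1 each in lung and tumor. Without PBS mouse 2 they were 33 in liver, 43 in spleen, 42 in lymph node, 4 in marrow, 10 in lung and 1 in tumor. Without PBS mouse 1 they were 75 in liver, 78 in spleen, 36 in lymph node, 44 in marrow, 11 in lung and 8 in tumor.

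With each library scaled to the family, the median of all genes moved to 0.42 in liver, -0.79 in spleen, -0.01 in tumor, -0.87 in lymph node, 0.31 in marrow and 0.42 in lung, so that these values show the make-up within the family. In liver 11 members were then higher and 1 was lower, against 40% and 14.2% of all genes. Rps27l (2.42), Rpl7l1 (1.5), Rps19bp1 (1.48), Rps2 (1.20), Rpl36al (1.15) and Rpl10 (0.94) were among those higher, and Rpl12 (-0.51) was the lower one. Rps27 and Rps24 were higher within the family in spleen (0.67 and 0.46), where 2 members were higher and 9 lower, against 8.41% and 39.4%. In lymph node 4 were higher and 6 lower, against 7.71% and 40.8%, with Rps27 at 0.61. In tumor, with 6 higher and 1 lower against 20% and 16.4%, Rps27 was the lower one (-0.71). In marrow 3 were higher, Rpl28 (0.68), Rplp0 (0.67) and Rpl29, and 4 lower, among them Rps27 (-0.69), against 31.6% and 15.3%. In lung 6 were higher and 5 lower, against 32.4% and 5.7%. Rps21 (0.69), Rps14 (0.54) and Rps27 (0.50) were higher there, and Rplp0 (-0.71) and Rpsa (-0.58) were lower. Spleen, lymph node and lung thus had Rps27 high within the family, and tumor and marrow had it low.

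Levels within the family were compared per kilobase of transcript in PBS bulk tissue, as CPM of the library total divided by length. Rpl13a was the highest canonical member in all 6 organs, at 1091 ± 226 CPM per kb in liver and 9489 ± 2956 CPM per kb in spleen (SD, n = 3 each). Rpl29 and Rps2 were the lowest 2 in each organ, Rps2 at 39.9 ± 3.21 CPM per kb in liver and 81.2 ± 13.0 CPM per kb in spleen. Members with many processed copies in the genome are uncertain, since their reads can be shared with those copies: Rps2 has 11 such named loci, and Rpl31 and Rps12 have the most, 24. The -ps copies held 0.0535 to 0.651% of the counts of a library, and of the 86 members 69 had a count that was not whole in at least 1 library. The share of counts covers only loci with a -ps symbol, so copies under other names are not in it.

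The ratio of a paralog to its partner differed between organs and between fractions. Per kilobase, Rps27l was at 355.9 CPM and Rps27 at 306.8 CPM in PBS liver, whereas in PBS spleen Rps27l was at 212.7 CPM and Rps27 at 3353 CPM. As counts, not corrected for length, Rps27l stood at 16.4 ± 0.807% of Rps27 in NA liver cells, 148.3 ± 27.0% in BP bulk liver and 145.6 ± 10.9% in PBS liver (SD, n = 3 each). NA liver libraries ranged from 15.7 to 17.3%, far below both bulk groups, which overlapped each other. In NA spleen cells the ratio was 7.92 ± 1.71%, against 8.69 ± 2.69% in BP bulk spleen and 7.82 ± 1.06% in PBS spleen, and the groups overlapped. Rpl36al was at 66.3 ± 7.64% of Rpl36a in NA liver cells, 137.2 ± 10.3% in BP bulk liver and 140.5 ± 17.2% in PBS liver. Rpl7l1 was at 8.04 ± 0.833% of Rpl7 in NA liver cells, 20.7 ± 0.527% in BP bulk liver and 19.9 ± 2.86% in PBS liver. For all 3 pairs the NA liver ratio was below the bulk ratio in every library. Rpl22l1 was at 26.3 to 31.2% of Rpl22 in the 6 PBS group means. In tumor it was 68.4 ± 11.0% in NA cells, 40.2 ± 22.6% in BP bulk and 29.1 ± 4.82% in PBS tumors, and the NA and BP bulk tumors overlapped.

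Rps27rt cannot be separated with confidence from Rps27. Its transcript of 374 bases matched a 345-base Rps27 transcript at 341 of 341 aligned bases. Rps27l, aligned with a 452-base Rps27 transcript, matched at only 63.4%. Rpl22l1 matched Rpl22 at 66.0% and Rpl36al matched Rpl36a at 76.0%. Rps27rt counts were 0.860 to 1.21% of Rps27 in the PBS group means, 1.04 to 1.23% in BP bulk tissue and 0.950 to 1.13% in NA cells of the 4 organs with 3 libraries, a narrower range than that of Rps27l. Every change given for Rps27rt above is therefore uncertain.

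**Figure D5:**
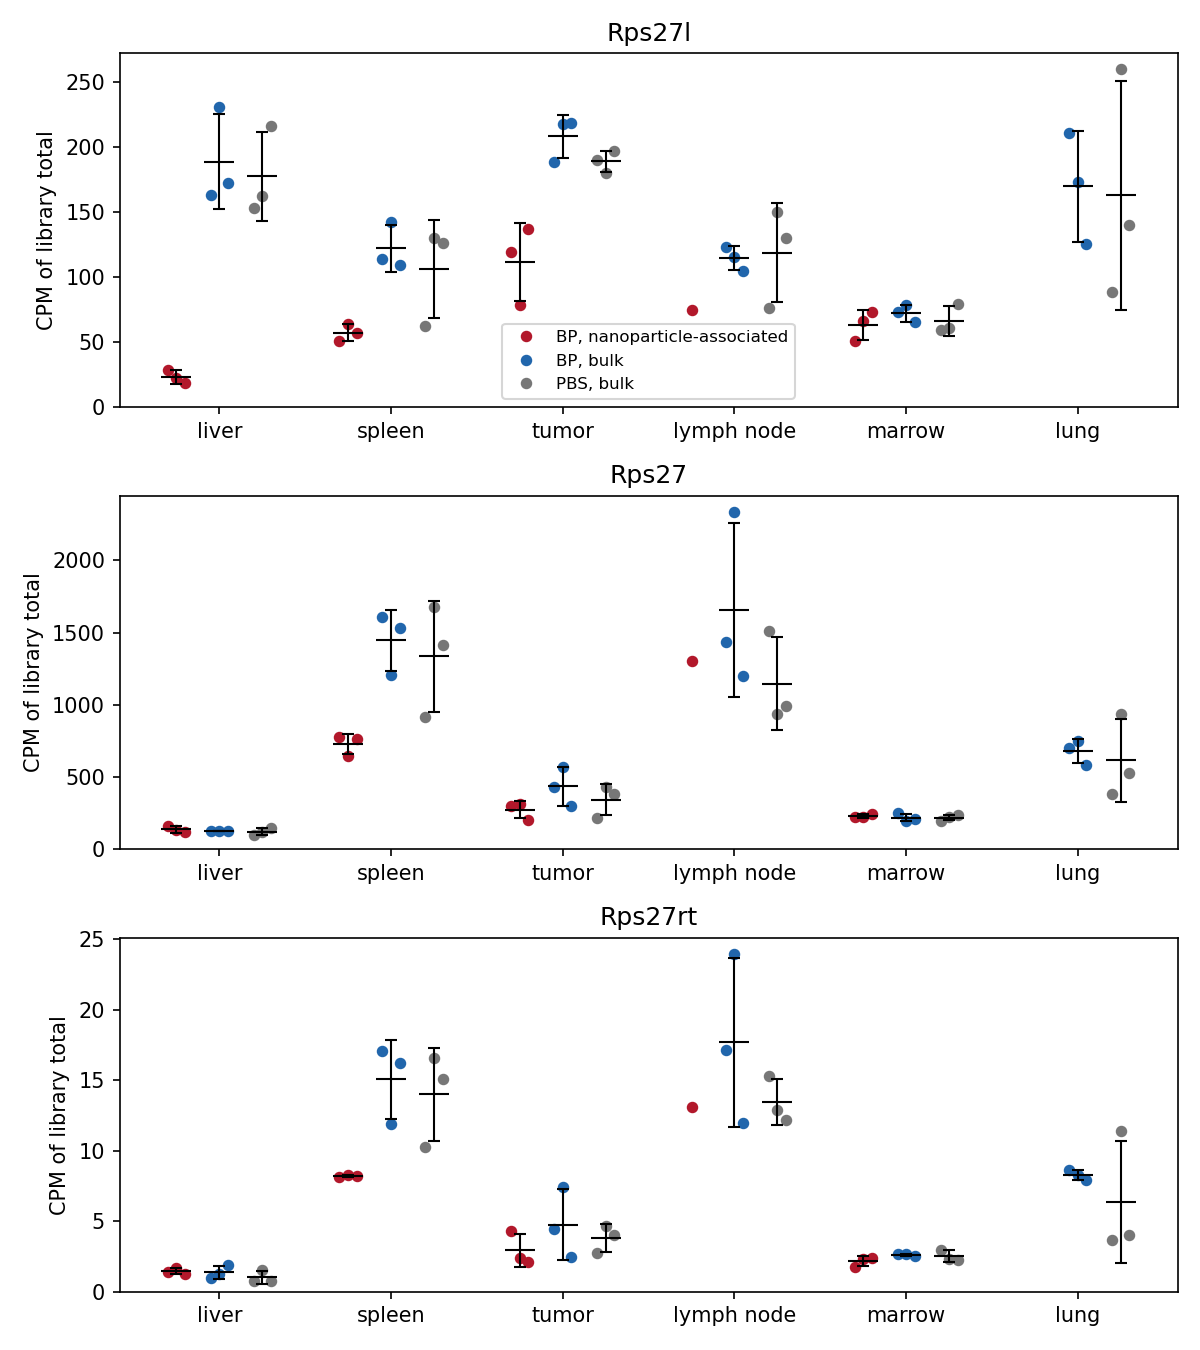
CPM of the library total for Rps27l, Rps27 and Rps27rt in each library, by organ, for nanoparticle-associated, BP bulk and PBS bulk libraries; points are libraries, and bars are the mean ± SD of groups of 3. Rps27l is low in nanoparticle-associated liver cells, whereas Rps27 is highest in spleen and lymph node, and Rps27rt has the pattern of Rps27 at about 1% of its level.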

How the data were processed

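RNA of whole organs and of magnetically separated cells was sequenced in 49 libraries, which form 17 groups by treatment, organ and fraction. The deposited values are expected counts per gene, as the authors deposited them. Per the submitters' processing notes, the tools included STAR 2.7.9a, RSEM 1.3.1, cutadapt 3.5 and FastQC 0.11.9, with the build mm10 and no settings. Neither strand setting nor annotation release is given in the sources used here, so reads of antisense or overlapping genes cannot be told apart. RSEM splits reads shared by several genes by estimate, which makes counts of close copies uncertain. Symbols and gene types came from GENCODE M21, which held 55227 of 55487 table entries.

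Rounded counts went into edgeR 4.0.16 under R 4.3.3 (limma 3.58.1; quasi-likelihood F-test, TMM scaling, minimum count 10, Benjamini-Hochberg adjustment over all genes tested, threshold 0.05, two-sided), per organ for treatment and for fraction, and jointly for organs and interactions. Organs of a mouse are not independent. CPM in a comparison carries that fit's scaling unless given as CPM of the library total; errors of log2 values are standard errors. Scripts were tested on simulated data. Alternatives were DESeq2 1.42.0, other scalings, no filter, exclusion of mitochondrial genes, an animal block and leaving out libraries. NA and BP bulk libraries with the same number come from the same mouse, by the design text; BP and PBS mice share a number only. Replicate pairs differed by more than sampling noise (chi-square per degree of freedom at least 9.17). Floors cover counting error only.

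The members and the lists were chosen with earlier results of these data known. Named by rule were, per direction, the 6 members (3 over organs) with the largest change among those called without overlap, the 3 with the smallest p where fewer than 3 were called, and always the paralogs with their partners, the stalk genes, Rpsa, Rpl5, Rpl11 and Rps6. Over organs few called members were free of overlap (Rps27l, Rps19, Rplp1, Rps12, Rpl4, Rpl22l1 by this rule), so members with the largest called changes despite overlap are named as well. These and other members outside the rule were chosen after their values were seen. A few genes that the rule covers are not reported here. Promoter sequences are RefSeq's.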

Additional observations from a re-analysis of the deposited data

Results flagged for a closer look

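The change in nanoparticle-associated cells differed between organs by a direct test (edgeR interaction, adjusted p under 0.05). Each organ is part of the reference of the others, so the counts are not independent between organs. The liver change differed from the mean of the other 3 organs for 50 of 83 members, 45 higher and 5 lower, where 29.4% of all genes were higher and 24.3% lower. The spleen change differed for 16 members, 14 of them lower, where 8.63% of all genes were lower. The tumor change differed for 23 members, all lower, where 15.4% of all genes were lower. The marrow change differed for 5 members, all higher, where 7.78% of all genes were, so the marrow count is near the background. As given above, the counts of every organ changed with the mice kept. They were smaller with the libraries scaled to the family. Digestion, separation and cell mixture differ between the fractions of every organ, and their part was not tested.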

How the results depend on the processing

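Depth limits the members with few counts, such as Rpl39l, Rpl3l and Rps27rt. The 0 members called between BP and PBS stayed 0 in every organ and alternative run. Scaling to the ribosomal protein genes, which removes the family's common change by construction, gave 16 calls for NA liver, 24 for NA spleen and 0 for NA tumor, and 12, 11, 7, 10 and 7 for PBS liver, spleen, tumor, lymph node and marrow. For the differences of NA changes between organs it gave 13 (liver), 3 (spleen), 5 (tumor) and 0 (marrow), and RLE size factors gave 3 (marrow). It reversed Rpl29 (-0.0696) and Rpl10 (-0.0180) in BP lung, Rpl22l1 in liver (0.20) and Rpl22l1 in lymph node (-0.10). DESeq2 gave 16 calls for NA tumor; the cause was not tested. The share difference of NA liver became 0.840 percentage points of non-mitochondrial counts. The replicate block, which pairs NA and bulk libraries by mouse, gave 0 calls for NA tumor and 2 for NA marrow and changed no other count of calls by over 1.5 times. As BP and PBS mice share only a number (same-number correlations of deviations from -0.248 to 0.480, not over 0.1 in all pairs of any organ), the block there is no pairing, and it gave 0 calls. Leaving out 1 library gave 20 to 45 calls for NA liver, 41 to 56 for NA spleen, 0 to 9 for NA tumor and 0 to 1 for NA marrow; leaving out 1 mouse gave 14 to 75 for PBS liver, 10 to 78 for spleen, 1 to 8 for tumor, 10 to 42 for lymph node, 1 to 44 for marrow and 1 to 11 for lung, and, for differences between organs, 9 to 49, 0 to 2, 1 to 13 and 0 to 1 in liver, spleen, tumor and marrow. It reversed Rpl10 in BP lung (-0.0130 to 0.42), and Rpl29 (-0.0424 to 0.53) and Rps2 (-0.36 to 0.0199) in BP spleen. Of 77 named results, 76 kept direction and call with RLE size factors, 77 without the low-count filter, 77 without mitochondrial genes and 53 with the family scaling.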
